A study of Mus musculus with 2 samples.

Results

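The genes described here are 10 secreted signals of the immune and vascular system: the CC chemokines Ccl2, Ccl7 and Ccl20, the CXC chemokines Cxcl1, Cxcl5 and Cxcl12, the membrane-tethered chemokine Cx3cl1, and the colony-stimulating factors Csf1, Csf2 and Csf3. They were taken by symbol and are 10 of the 32285 genes counted. They were measured in 1 droplet single-cell library of primary aortic vascular smooth muscle cells (VSMCs) of C57BL/6 mice, in which 4 cultures had been marked with hashtag antibodies and mixed. The cultures were young cells (mice of 12 weeks), old cells (58 to 78 weeks), young cells given 100 nM angiotensin II (AngII) for 48 hours, and old cells transfected with siRNA against Piezo1, a mechanically gated cation channel (20 nM by the labels, while the study's text also gives another dose). The cells were bought as primary cultures, and the study names more than 1 vendor, each with its own smooth muscle medium. The sources used here do not say which vendor supplied a culture or how many animals stood behind it. Groups were named after numbers in the study's overview drawing, where 1 stands for young, 2 for old, 3 for young + AngII and 4 for old + siPiezo1. The drawing does not call these tag numbers, so the tag is kept beside each name. Each tag was taken as 1 culture with no replicate told apart, and no test between groups was possible. Intervals are exact 95% intervals for counting error only, and cells are not replicates.

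Chemokines draw white blood cells along a gradient through receptors on those cells. Ccl2 and Ccl7 act on monocytes through Ccr2, Ccl20 acts on lymphocytes and dendritic cells through Ccr6, and Cxcl1 and Cxcl5 act on neutrophils through Cxcr2. Cxcl12 holds and guides progenitor cells through Cxcr4, with Ackr3 as a scavenging receptor, and Cx3cl1 binds Cx3cr1 on monocytes. Csf1 keeps macrophages alive through Csf1r, Csf2 drives granulocytes and macrophages through a receptor of Csf2ra and Csf2rb, and Csf3 drives neutrophils through Csf3r. In vessels, smooth muscle is a known source of Ccl2 and Csf1. Several of these genes are classical targets of the transcription factor NF-kappaB, and several of their messages carry AU-rich words in the 3′ UTR that shorten the life of a message.

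By GENCODE vM21 (GRCm38), the members lie on 6 chromosomes, and some are neighbours. Ccl2 (chr11:82035571-82037453, plus strand) and Ccl7 (chr11:82045712-82047525, plus strand) are 8258 bases apart. Cxcl5 (chr5:90759360-90761624) and Cxcl1 (chr5:90891241-90893115) lie on the plus strand of another cluster, 129616 bases apart. Csf2 (chr11:54247271-54249667, minus strand) and Csf3 (chr11:98701263-98703629, plus strand) share a chromosome with Ccl2 but not its cluster. Ccl20 is at chr1:83116766-83119167, Csf1 at chr3:107741048-107760469 on the minus strand, Cxcl12 at chr6:117168535-117181367 and Cx3cl1 at chr8:94772009-94782427.

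The 250 bases before the RefSeq start were searched on both strands for the NF-kappaB consensus, written by its name alone. RefSeq (GRCm38.p6) gave a promoter for 6 members, namely Ccl20, Cxcl1, Cxcl12, Cx3cl1, Csf1 and Csf2. A match stood in 3 of them, and 3.90% of all 32851 promoters of this length held one. A match is a run of letters and not a measured site, and no match says only that the letters are not in this window. The windows of Csf2 (chr11:54249900-54250149) and Cx3cl1 (chr8:94771930-94772179), both without a match, do not end at the GENCODE start. The 3 promoters with a match are shown because Cxcl1 and Csf1 differed between young and old cells and Ccl20 did not pass the same fold; capitals mark the match, which begins 71 bases before the start in Cxcl1, 154 in Csf1 and 80 in Ccl20.
Cxcl1, chr5:90890995-90891244, plus strand: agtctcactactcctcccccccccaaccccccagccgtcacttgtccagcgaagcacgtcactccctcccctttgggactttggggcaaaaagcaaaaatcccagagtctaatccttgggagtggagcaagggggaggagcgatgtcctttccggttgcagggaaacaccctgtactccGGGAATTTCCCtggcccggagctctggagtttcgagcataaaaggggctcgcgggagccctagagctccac
Csf1, chr3:107760470-107760719, minus strand: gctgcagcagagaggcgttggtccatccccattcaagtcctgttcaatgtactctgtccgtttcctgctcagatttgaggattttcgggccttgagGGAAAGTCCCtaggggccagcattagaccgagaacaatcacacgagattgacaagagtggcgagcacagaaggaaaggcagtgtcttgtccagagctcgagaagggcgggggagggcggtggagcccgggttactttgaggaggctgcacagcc
Ccl20, chr1:83116516-83116765, plus strand: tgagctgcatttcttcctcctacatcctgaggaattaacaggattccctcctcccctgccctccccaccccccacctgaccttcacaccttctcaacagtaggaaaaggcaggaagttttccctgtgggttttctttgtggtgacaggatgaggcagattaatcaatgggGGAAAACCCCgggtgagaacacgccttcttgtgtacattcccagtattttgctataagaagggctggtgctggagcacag

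The word ATTTA, the core of AU-rich elements, was counted on the sense strand in the longest annotated 3′ UTR of each gene, with overlapping copies counted. Csf2 held 9 copies in 317 bases, or 28.4 per kb, a density that 99.9% of 21037 genes did not exceed. Cxcl1 held 7 copies in 592 bases (11.8 per kb), Csf3 held 6 in 669 bases (8.97 per kb) and Ccl20 held 9 in 1050 bases (8.57 per kb). Cxcl5 with 5 copies and Ccl7 with 2 had 4.50 and 4.60 per kb. Ccl2 had 1 copy in 275 bases, or 3.64 per kb, a density that 84.9% of genes did not exceed. Cxcl12 and Cx3cl1 lay below the median of all genes, 1.24 per kb, with 0.771 and 0.534, while Csf1 had 1.89. The 30 bases with the most copies are shown for the 3 densest messages, with each copy in capitals. Beside them stand Csf1 and Ccl2, which were found in most cells, as Ccl7 also was.
Csf2, chr11:54247329-54247358, minus strand: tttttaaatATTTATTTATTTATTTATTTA
Cxcl1, chr5:90892602-90892631, plus strand: gagggtcctATTTATTTAtgtATTTATTTA
Csf3, chr11:98702984-98703013, plus strand: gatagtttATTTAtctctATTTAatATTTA
Csf1, chr3:107741109-107741138, minus strand: tttatataaggtcATTTAaatatctATTTA
Ccl2, chr11:82037193-82037222, plus strand: tgatgccttaattaatattaaacttATTTA

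Barcodes that held no fewer than 2218 gene UMIs (unique molecular identifiers, 1 per captured RNA molecule) and 200 genes were taken as cells. That gave 13045 cells with 115033686 UMIs. Of these, 3144 carried tag 1 alone (median 6816.5 UMIs), 497 carried tag 2 (10663), 1500 carried tag 3 (9453.5) and 1529 carried tag 4 (9792), while 5307 cells (40.7%) had no tag above its cutoff and 1068 had more than 1. The old tags were less securely assigned than tag 1. With the tag cutoffs doubled, 2783, 112, 681 and 527 cells of tags 1 to 4 remained. A tag at least 3 times the next was held by 2649, 179, 1334 and 482 of them. Scrublet called 23.4% of cells doublets, with 19.9% to 23.3% in the 4 tags. The siRNA's target Piezo1 stood at 71.6 (68.2 to 75.0), 89.6 (82.0 to 97.9), 108 (103 to 114) and 86.9 (82.4 to 91.5) CPM (UMIs of the gene scaled to 1000000 gene UMIs) in tags 1 to 4. The intervals of tags 2 and 4 overlapped, so these counts did not show a lower level of the target in tag 4. The study, in contrast, reports a lower Piezo1 level after siPiezo1 in its single-cell data, by qRT-PCR and by immunostaining. The reason for the difference was not tested, and these cells are called labelled siPiezo1. Smooth muscle markers were present: the 9 listed genes summed to 1985 to 3595 CPM and none was at 0, although Myh11, the most specific of them, reached at most 7.89 CPM in a tag. Blood cell markers were near the floor, with 16.4 to 26.2 CPM for the sum of 8 macrophage and blood cell genes. A list of 4 neutrophil genes summed to 12.1, 68.3, 72.9 and 74.6 CPM in tags 1 to 4, nearly all of it S100a8 (11.3, 68.0, 72.4 and 74.1 CPM), while S100a9 was at 0 UMIs in tags 1, 2 and 4 and Csf3r in tags 2 to 4. Ptprc had 3 UMIs in the 4 tags together, Adgre1 had 5 and Cd3e had 0, and a count of 0 allows up to 3 UMIs. The sex-linked transcripts did not match across tags: Xist was at 113 and 118 CPM in tags 1 and 3 and at 636 and 768 in tags 2 and 4, and the 4 Y-linked genes summed to 156, 47.0, 143 and 45.5 CPM in tags 1 to 4.

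Together the 10 genes took 0.617% of all UMIs, and 0.820%, 0.551%, 0.620% and 0.553% in tags 1 to 4. CPM values count molecules at their 3′ end and were not divided by transcript length, so levels of different genes are set side by side on that scale. Ccl2 stood at 3320.4 CPM in all cells, rank 27 of the 24380 genes detected, and Ccl7 at 1280.0 CPM ranked 117. Cxcl5 (602 CPM, rank 219), Csf1 (549.6 CPM, rank 239) and Cxcl1 (266 CPM, rank 551) followed. Cxcl12 was at 84.0 CPM, Csf3 at 33.5 and Ccl20 at 30.4, while Cx3cl1 at 2.67 CPM and Csf2 at 1.60 were detected at 307 and 184 UMIs in the whole library. The plot of levels per tag shows each gene in each tag.

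**Figure D1:**
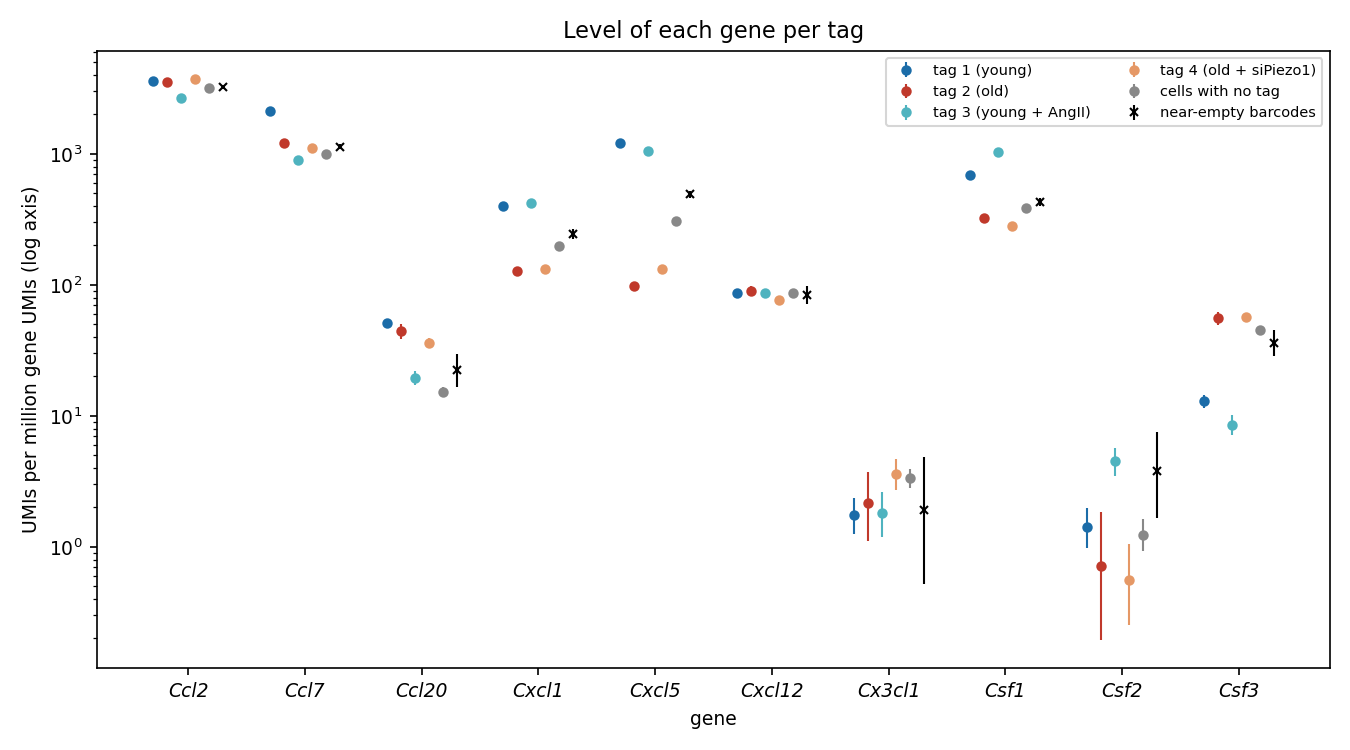
Level of each of the 10 genes in the cells of tags 1 to 4, in cells with no tag and in near-empty barcodes of 1 to 100 UMIs; the axis is CPM on a log scale, and bars are exact Poisson 95% intervals for counting error. Ccl2 lay between 2679 and 3709.6 CPM in every tag, whereas Cxcl5 stood at 1219 and 1049.6 in tags 1 and 3 and at 97.2 and 132 in tags 2 and 4, and Csf3 showed the opposite order.

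Free RNA bears on each of these values. Barcodes of 1 to 100 UMIs held 2096028 UMIs, and the members stood there close to the level of the pooled cells: Ccl2 at 3212 CPM, Ccl7 at 1137, Csf1 at 429, Cxcl5 at 491 and Cxcl1 at 246. Csf2 had 8 UMIs there, 3.82 CPM with an interval of 1.65 to 7.52, which is above the 1.60 CPM of the cells. With 5% of each tag's UMIs taken as free RNA of this profile and subtracted, the ratio of Cxcl5 in old over young cells went from 0.0797 to 0.0608. The same level was taken from both tags, so the direction of a ratio could not change and says nothing on free RNA.

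Ccl2, the main attractant of monocytes, was found in nearly every cell. Its level was 3614 CPM in untreated young cells (tag 1) and 2679 in those given AngII (tag 3), against 3564 in old cells (tag 2) and 3709.6 in those labelled siPiezo1 (tag 4). The lowest tag was the AngII one, and the other 3 lay close together, with old over young at 0.986 (0.971 to 1.001) and siPiezo1 over old at 1.04 (1.02 to 1.06). After each cell was thinned to 5000 UMIs, 97.9%, 98.3%, 94.9% and 99.1% of the cells of tags 1 to 4 held at least 1 Ccl2 UMI, with medians of 15, 15, 10 and 17 per cell.

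Ccl7, a second ligand of monocyte receptors, did not keep the same order as its neighbour Ccl2. It was at 2129 CPM in tag 1, 1202 in tag 2, 894 in tag 3 and 1103 in tag 4. Young untreated cells stood above the other 3 tags, and the AngII cells were lowest. Its ratio was 0.564 (0.550 to 0.579) for old over young, 0.420 for AngII over young and 0.918 for siPiezo1 over old. Among thinned cells both genes nevertheless varied together within each tag, with Pearson r of log2(UMIs + 1) of 0.71, 0.63, 0.60 and 0.55 in tags 1 to 4 (2397, 476, 1364 and 1415 cells of 1 library, so a description). Of 6542 genes with at least 1000 thinned UMIs, Ccl2 was the gene most like Ccl7 (r = 0.60 over 10612 cells), and after Ccl7 the genes most like Ccl2 were the acute phase gene Saa3 (0.26) and Tmem176b (0.24). After Ccl2, the genes most like Ccl7 were the interferon response genes Ifitm3 (0.34) and Ifit1 (0.33).

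Ccl20, an attractant of Ccr6-bearing lymphocytes, was found in few cells. It was at 51.2 CPM in tag 1, 44.1 in tag 2, 19.5 in tag 3 and 36.1 in tag 4. After thinning, 7.68%, 7.98%, 5.50% and 6.50% of cells held a UMI, and before thinning a positive cell held 4.40, 3.84, 2.69 and 4.01 UMIs on average. A single cell carried 60 of the 246 UMIs of tag 2 (24.4%) and another 104 of the 581 of tag 4 (17.9%), and without these cells the tags stood at 33.5 and 29.6 CPM. The ratio of old to young, 0.861 (0.748 to 0.988), went above 1 with an interval clear of 1 under 4 of 15 alternatives. Leaving out the cells of cluster 10 (described below) was 1 of these (1.27).

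Cxcl5, a neutrophil attractant, showed the widest gap of the 10. It was at 1219 CPM (1205 to 1233) in young cells, 1049.6 (1033 to 1066) with AngII, 97.2 (89.2 to 106) in old cells and 132 (127 to 138) in old cells labelled siPiezo1. Both young tags stood well above both old tags, and no interval overlapped another. Thinned cells with a UMI made up 73.3% of tag 1 and 59.5% of tag 3, against 17.0% of tag 2 and 20.1% of tag 4. Cells of the old tags that held the gene also held less of it, on average 4.20 and 4.82 UMIs per positive cell before thinning, against 12.6 and 16.1 in tags 1 and 3. Near-empty barcodes held Cxcl5 at 491 CPM, above both old tags, and the part of free RNA in these shares was not tested. A single cell held 64 of the 542 UMIs of tag 2 (11.8%), and without it that tag stood at 85.9 CPM. Across cells the genes most like it were Ly6a (r = 0.51), a surface protein of mesenchymal progenitors, Cxcl1 (0.46) and the interferon response gene Isg15 (0.44).

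Cxcl1, a second neutrophil attractant, split the tags the same way with a smaller gap. Young cells held 397 CPM (389 to 405), AngII cells 425 (415 to 436), old cells 128 (119 to 138) and cells labelled siPiezo1 132 (126 to 138). The 2 old tags overlapped each other and lay below both young tags. Thinned cells with a UMI were 57.3% and 55.4% of tags 1 and 3 and 25.2% and 31.8% of tags 2 and 4. In cells with a Cxcl1 UMI, Cxcl5 was present in 82.7% in tag 1 and 70.3% in tag 3, against 60.5% and 46.0% of the cells without one; in tag 2 the shares were 24.2% and 14.6%, and in tag 4 they were 31.6% and 14.7%. Over all thinned cells Cxcl5 was the gene most like Cxcl1 (r = 0.46), followed by Cxcl2 (0.32), which lies 10755 bases away, and Ccl7 (0.28).

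Cxcl12, a retention signal for progenitor cells, was the steadiest gene. It was at 86.9 CPM in tag 1, 89.3 in tag 2, 86.4 in tag 3 and 76.2 in tag 4, and tags 1 to 3 overlapped. Thinned cells with a UMI were 27.3% to 30.04% of each tag. No gene tracked it closely across cells, the highest r being 0.11 for Thbs1. Cx3cl1, a tethered chemokine, had 42, 12, 27 and 58 UMIs in tags 1 to 4, or 1.74, 2.15, 1.81 and 3.60 CPM, and the old tag overlapped with every other. At 1.91 CPM in near-empty barcodes (4 UMIs), its level in cells could not be set apart from free RNA at this depth.

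Csf1, the survival factor of macrophages, was the only colony-stimulating factor found in most cells. It was at 685 CPM (674 to 695) in young cells, 323 (309 to 339) in old, 1035 (1018 to 1051) with AngII and 284 (275 to 292) in the cells labelled siPiezo1. The order was AngII, young, old and siPiezo1, and no neighbours in it overlapped. Thinned cells with a UMI were 89.2%, 58.8%, 95.7% and 58.9% of tags 1 to 4, with medians of 3, 1, 5 and 1 UMIs. The genes most like it across cells included Cryab (r = 0.54), a small heat shock protein, and Lox (0.53), which crosslinks collagen and elastin.

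Csf3, the neutrophil growth factor, ran the other way. It was at 13.0 CPM (11.6 to 14.5) in young cells and 8.50 (7.09 to 10.1) with AngII, against 55.4 (49.4 to 61.9) in old cells and 56.7 (53.1 to 60.5) in the cells labelled siPiezo1. The 2 old tags overlapped and stood above both young tags. Thinned cells with a UMI were 3.96% and 2.64% of tags 1 and 3 and 18.7% and 19.1% of tags 2 and 4. Within both old tags, Csf1 was present in fewer of the cells that held Csf3 than of those that did not, 42.7% against 62.5% in tag 2 and 48.9% against 61.3% in tag 4. The genes most like Csf3 were Odc1 (r = 0.23), the first enzyme of polyamine synthesis, Lcn2 (0.19), an iron-carrier binding protein, and Ptges (0.19), a prostaglandin E synthase; values this low in sparse counts are listed by rule and carry no finding.

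Csf2, the granulocyte and macrophage factor, was close to the floor. It had 34 UMIs in tag 1, 4 in tag 2, 67 in tag 3 and 9 in tag 4, or 1.41, 0.717, 4.49 and 0.559 CPM. The AngII tag was highest, and 30 of its 67 UMIs came from 1 cell, a Scrublet doublet of cluster 10; without that cell the tag stood at 2.48 CPM. In all, 103 of 13045 cells (0.790%) held a Csf2 UMI.

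The first comparison was of old with young cells (tag 2 over tag 1). Age cannot be told apart here from the animals behind each culture, and sex-linked transcripts differed between these tags. Past 2-fold, 1 of 10 members was higher and 3 were lower, where 5.84% of the 14370 genes with at least 20 UMIs over both tags were higher and 9.74% lower. Cxcl5 was 12.5-fold lower (ratio 0.0797, interval 0.0731 to 0.0868), Cxcl1 3.10-fold lower (0.322) and Csf1 2.12-fold lower (0.472). Csf3 was 4.27-fold higher (3.64 to 5.01), a direction that turned in 1 cluster of cells (cluster 2, 92.1 CPM in young and 29.0 in old). Some cell markers moved with the same comparison. The 6 fibroblast and adventitia genes summed to 2468, 601, 1132 and 838 CPM in tags 1 to 4, none of them at 0. Ly6a and Pdgfra were past 2-fold lower in old cells, while 3 of the 5 genes compared passed 2-fold in neither direction. Ly6a, the gene most like Cxcl5, made up most of the sum in tag 1, at 1944 CPM against 56.5 in tag 2. S100a8 of the neutrophil list was 6.00-fold higher in old cells. Of 9 smooth muscle markers, Cnn1 and Tagln were past 2-fold higher and 0 were lower, with a median ratio of 1.505. In the other marker lists, Hist1h1b, Krt18, Msln, Pecam1 and Lyz2 were past 2-fold higher, and Krt19, Kdr, Tek and Csf1r were past 2-fold lower. The part of these markers in the result was not tested. Ccl7 at 0.564 was just inside the fold, and Csf2 at 0.509 had an interval of 0.131 to 1.43. The median ratio was 0.697 over the members and 1.02 over all genes tested. Among the neutrophil signals, Cxcl1 and Cxcl5 were lower in old cells and Csf3 was higher. Over the 15 alternatives the ratio of Cxcl5 ran from 0.0402 to 0.197 and that of Csf3 from 1.65 to 8.35, and Cxcl1, Csf1 and Csf3 did not pass the fold in cells with Xist.

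**Figure D2:**
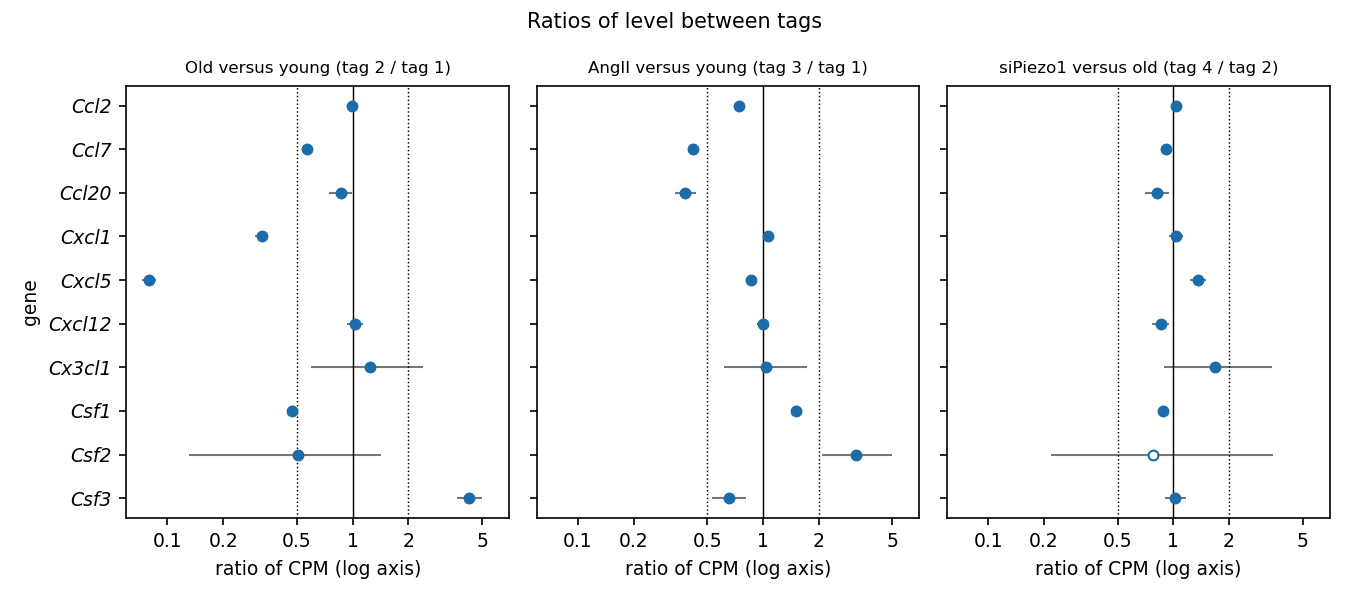
Ratio of CPM of each gene in old over young cells, AngII over young cells and siPiezo1 over old cells, on log axes; bars are exact binomial 95% intervals for counting error, dotted lines mark 0.5 and 2, and the open point has under 20 UMIs. Cxcl5, Cxcl1, Csf1 and Csf3 lay outside the lines in the first panel, Ccl7, Ccl20 and Csf2 in the second, and none of the filled points in the third.

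AngII is a peptide hormone that narrows vessels and raises blood pressure. Against the same young cells (tag 3 over tag 1), 1 of 10 members was higher past 2-fold and 2 were lower, where 3.39% of 14849 genes were higher and 7.69% lower. Ccl20 was at 0.380 (0.334 to 0.432) and Ccl7 at 0.420 (0.412 to 0.428). Csf2 was 3.18-fold higher (2.08 to 4.96), and was at 1.98 without the 5 highest cells of each tag and at 1.57 (0.823 to 2.999) without doublets. Csf1 at 1.51 and Ccl2 at 0.741 moved less, and Cxcl1 (1.07), Cxcl5 (0.861) and Cxcl12 (0.995) stayed within 1.5-fold. In cells with Xist and no Y-linked UMIs, Ccl7 was at 0.605 and Ccl20 at 0.934. The members' median was 0.925 and that of all genes 1.002. Cell markers moved here too. Of 9 smooth muscle markers, Cnn1 and Myh11 were past 2-fold lower and 0 higher. Of 8 dividing-cell genes, 3 were past 2-fold lower and 0 higher, with a median ratio of 0.680. In the other marker lists, Ly6a, Kdr and Csf1r were past 2-fold lower, and S100a8 and Lyz2 higher. The part of these markers in the values was not tested. Both comparisons share the young cells, so their values are given side by side only: Cxcl5 was at 0.0797 in old and 0.861 with AngII, Csf1 at 0.472 and 1.51, and Csf3 at 4.27 and 0.655.

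The cells labelled siPiezo1 were set against the old cells (tag 4 over tag 2). None of the 9 members with at least 20 UMIs passed 2-fold, where 2.16% of 13539 genes were higher and 1.45% lower. Cxcl5 at 1.36 (1.24 to 1.498) and Cxcl12 at 0.854 had intervals away from 1, as did Ccl7 at 0.918, Csf1 at 0.877 and Ccl20 at 0.818. Cxcl1 (1.03), Csf3 (1.02) and Ccl2 (1.04) were close to 1, although the interval of Ccl2 did not hold 1. Cx3cl1 at 1.67 had an interval of 0.889 to 3.42. The median was 1.02 over members and over all genes. Csf2, with 13 UMIs over both tags, was not compared. The Ccl20 ratio ran from 0.240 in cells with Y-linked and no Xist UMIs to 1.29 in cells with Xist and no Y-linked UMIs, and that of Csf1 was at 1.13 in the former cells. For Cxcl5 the ratio ran from 0.9498 without cells with UMIs of dividing-cell genes to 2.72 with the tag cutoffs doubled. Under the same alternatives, that of Cx3cl1 ran from 0.9013 to 2.90. The old cells are shared with the first comparison. Whether they had been given a non-targeting siRNA is not stated for this library. Smooth muscle markers differed between the same tags, with 5 of 9 (Acta2, Cnn1, Myh11, Myl9 and Tagln) past 2-fold lower in the cells labelled siPiezo1, a median ratio of 0.456 and sums of 3595 and 1985 CPM in tags 2 and 4, and their part in these values was not tested.

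Sex-linked transcripts moved with the same split of tags, so the comparison was repeated within cells of one kind. Cells with Y-linked but no Xist UMIs were 1700, 97, 833 and 211 in tags 1 to 4, and cells with Xist but no Y-linked UMIs were 154, 313, 94 and 1021. Among the first kind, Cxcl5 was at 1338 CPM in tag 1 and 70.6 in tag 2, Cxcl1 at 426 and 116, Csf1 at 748 and 344, and Csf3 at 8.05 and 58.5. Among the second kind the gaps kept their direction and were smaller: Cxcl5 was at 481 and 94.7, Cxcl1 at 189 and 118, Csf1 at 426 and 308, and Csf3 at 35.5 and 58.7, so that Cxcl5 alone stayed past 2-fold. In tags 1 and 3, the cells with Xist stood closer to the levels of the old tags for all 4 genes. The less frequent kind made up 4.90% of tag 1, 19.5% of tag 2, 6.27% of tag 3 and 13.8% of tag 4. Whether these cells carried the right tag was not tested, so the split is not a clean comparison within 1 sex. The part of sex in these differences was not tested, and a culture's age and the animals behind it cannot be told apart in 1 culture per group.

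**Figure D3:**
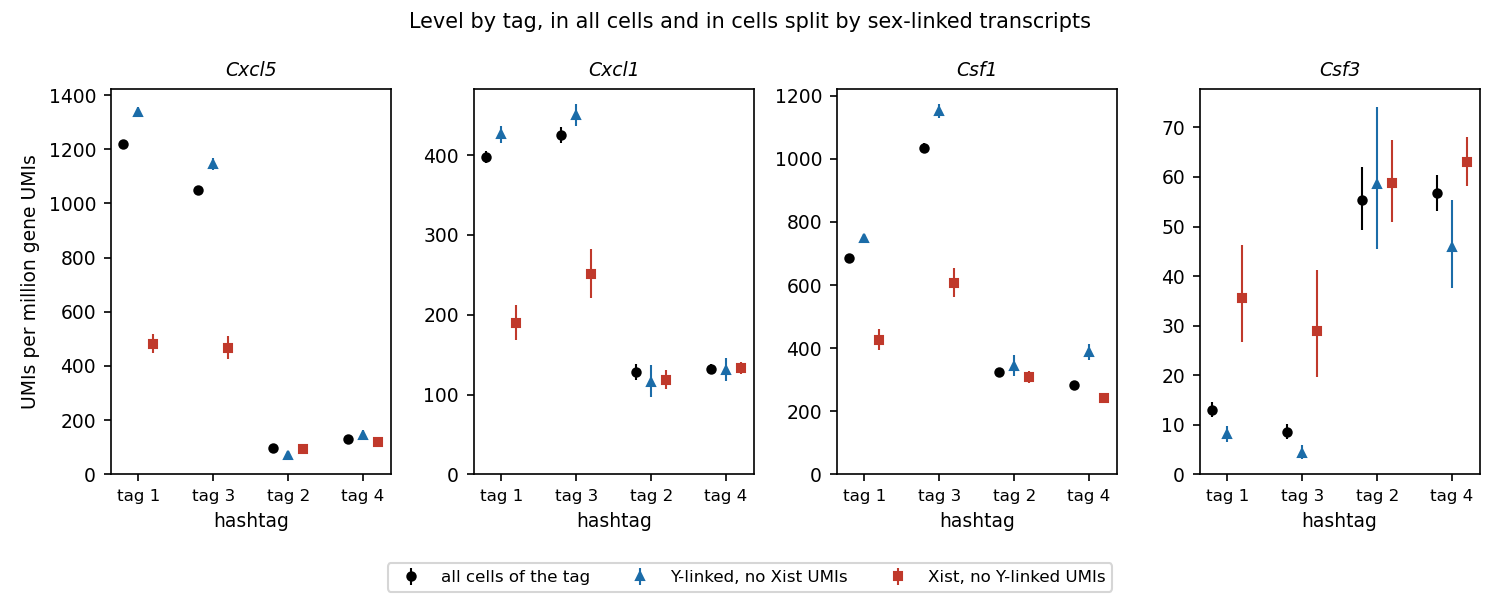
Level of Cxcl5, Cxcl1, Csf1 and Csf3 per hashtag in all cells of the tag, in cells with Y-linked and no Xist UMIs and in cells with Xist and no Y-linked UMIs; the axis is CPM, starting at 0, and bars are exact Poisson 95% intervals for counting error. The Xist cells of tags 1 and 3 lay between the other cells of these tags and the 2 old tags.

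The share of each message held by the highest cells differed between genes. In 10612 cells thinned to 5000 UMIs, the top 10% of cells held 28.4% of Ccl2 UMIs, 34.0% of Ccl7 and 34.0% of Csf1, but 59.8% of Cxcl1 and 61.4% of Cxcl5. Csf3, found in 10.3% of these cells, had 98.0% of its UMIs in that top 10%, and the top 1% held 55.2% of Ccl20. Variance over mean, which is 1 for counts spread at random over equal cells, was 13.5 for Cxcl5, 11.9 for Ccl2, 8.25 for Ccl20, 7.52 for Ccl7 and 6.91 for Cxcl1. It was 3.17 for Csf1, 2.86 for Csf3, 1.67 for Cxcl12 and 1.02 for Cx3cl1. Both measures depend on a gene's level. Variance over mean grows with the mean, and a sparse gene has a high share in the top cells because few cells hold it. The 10 genes were therefore not ranked by evenness.

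**Figure D4:**
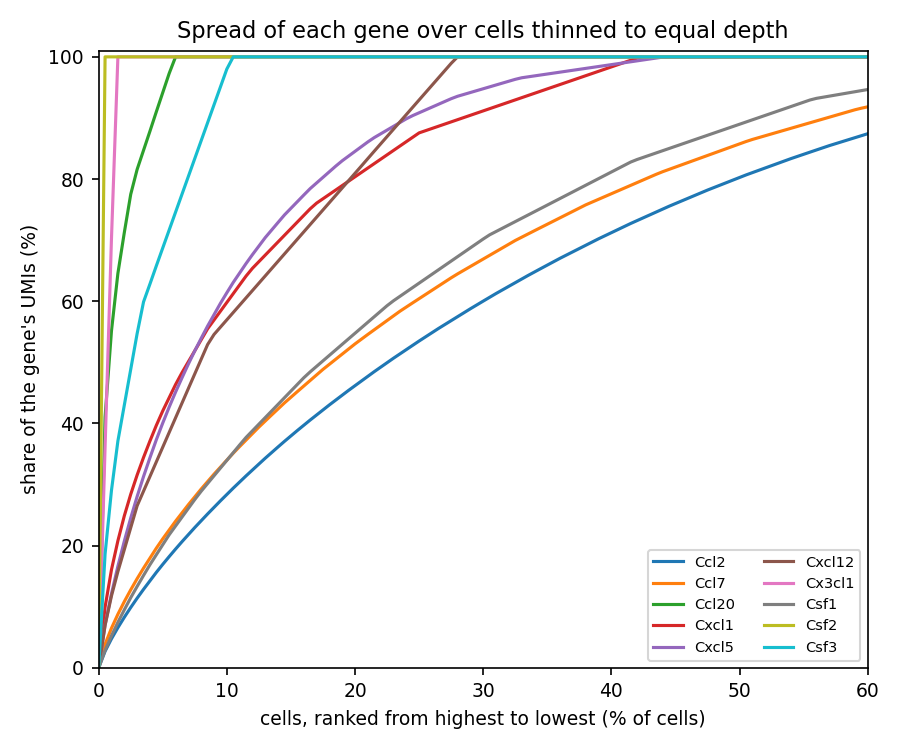
Share of each gene's UMIs held by cells ranked from highest to lowest, over 10612 cells thinned to 5000 UMIs; the x axis is the share of cells in percent, up to 60, and each line is 1 gene. Lines near the left edge (Csf2, Cx3cl1, Ccl20, Csf3) belong to genes found in few cells, and Ccl2, Ccl7 and Csf1 rise slowest.

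Cells were clustered with the members and the other listed chemokine genes left out of the variable genes, which gave 13 clusters, described here by their leading genes. Tags and clusters coincided only in part. Cluster 1 (2096 cells, led by the interferon response genes Ifit3, Ifit1 and Ifit3b) held 1887 cells of tag 1. Cluster 3 (1769 cells, led by Serpinb2, Lce1g and Wnt2) held 830 of tag 3 and 606 with no tag. Cluster 0 (2479 cells, led by Igfbp5, Nxph1 and Clu) held 524 of tag 4, 210 of tag 2 and 1594 with no tag. Cluster 9 (431 cells, led by Lmo7, Klra4 and Slpi) held 281 of tag 4. Cells with no tag also numbered 1351 in cluster 2 and 537 in cluster 5. Cluster 5 (835 cells, led by Actg2, Cnn1 and Myh11) is VSMC-like, with 4 of its top 10 genes among the fixed smooth muscle markers. Cluster 2 (1979 cells) was led by the dividing-cell genes Hist1h1b, Mki67 and Top2a, cluster 6 (717 cells) by Ccne2, Slfn9 and Clspn, and cluster 7 (582 cells, 546 of tag 1) by Cdkn3, Psmb8 and Phf11d. In cluster 4, 83.6% of cells were doublets.

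Csf3 was highest in clusters 0 (89.0 CPM) and 9 (83.4 CPM) and at 8.46 in cluster 1. Cxcl5 was highest in cluster 1 (1461 CPM) and at 1413 in cluster 7, 1212 in cluster 6 and 1031 in cluster 3, against 100.4 in cluster 0. Csf1 reached 1522 CPM in cluster 12 (89 cells, led by Zfp804a, Gm12153 and Gpr39) and 1105 in cluster 3, with 142 in cluster 9. Ccl2 varied least among the abundant genes, 4.39-fold from the lowest to the highest cluster, against 13.7-fold for Ccl7, 17.9-fold for Cxcl5 and 14.8-fold for Csf1, and Cxcl12 varied 2.34-fold.

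Cluster 10, 184 cells led by Adam2, Olfr655 and Gm10827 with Cxcl2 and the stress gene Gdf15 in its top 10, was the highest for 5 members. It held Ccl2 at 4704 CPM, Ccl7 at 4528, Cxcl1 at 1220.4, Ccl20 at 365 and Csf2 at 40.0. It took 1.37% of all UMIs in the library, but 16.5% of the Ccl20 UMIs and 34.2% of those of Csf2. Of its 63 Csf2 UMIs, 30 came from 1 cell of tag 3, a Scrublet doublet. Of its cells 141 were of tag 1, and these held 440 of the 1236 Ccl20 UMIs of young cells. Without cluster 10, Ccl7 stayed past 2-fold lower with AngII (0.446) and Ccl20 did not (0.545).

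**Figure D5:**
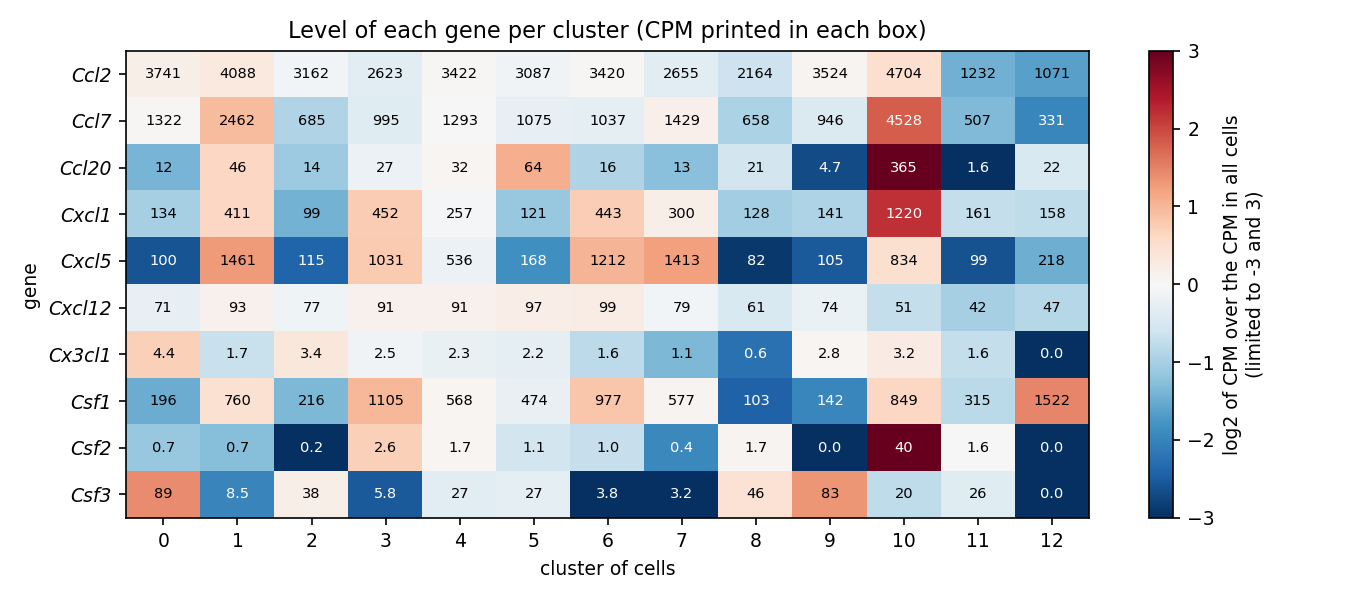
Level of each gene per cluster of cells, with the CPM printed in each box and the colour giving log2 of that CPM over the CPM in all cells, limited to -3 and 3. Cluster 10 is the highest column for Ccl2, Ccl7, Ccl20, Cxcl1 and Csf2, clusters 1, 3, 6 and 7 carry most Cxcl5, and clusters 0 and 9 are highest for Csf3.

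Young and old cells were also compared within clusters 0, 2, 4 and 5, all the clusters with at least 20 cells of each tag; tag 1 had 52, 34, 320 and 28 cells in them and tag 2 had 210, 122, 46 and 87. Cxcl5 was lower in old cells in all 4, at 175 CPM in tag 1 and 88.5 in tag 2 in cluster 0, 197 and 77.1 in cluster 2, 756 and 160.5 in cluster 4, and 285 and 47.9 in the VSMC-like cluster 5, with no overlap of intervals. Csf3 did not keep its direction. It was at 92.1 CPM (64.5 to 127) in tag 1 and 29.0 (21.1 to 38.9) in tag 2 in cluster 2, higher in young cells, and its intervals overlapped in cluster 0 (85.2 and 111), cluster 4 (22.005 and 23.3) and cluster 5 (6.62 and 15.7). Cxcl1 was lower in old cells in cluster 0 (222 and 139) and cluster 4 (312 and 181), and overlapped in cluster 2 (133 and 90.3) and in cluster 5, where old cells had the higher value (79.5 and 105). Csf1 was lower in old cells in cluster 0 (219.8 and 151) and cluster 4 (569.6 and 471), and overlapped in cluster 2 (289 and 254) and in cluster 5, where old cells had the higher value (467 and 529). Cxcl5 was thus lower in old cells within each of these clusters, and Csf3 was higher in none of them beyond counting error. These clusters held few of the 3144 cells of tag 1, mostly in cluster 4, where 83.6% of all cells were doublets. Clusters 1 and 7 held 1887 and 546 cells of tag 1 and 0 of tag 2, so most young cells could not be compared this way.

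Most signalling receptors of these ligands were nearly absent from the cells. Ccr6 and Csf2rb2 had 0 UMIs in the 4 tags, Ccr2 had 1, Cxcr4 had 2, Csf3r had 2 and Csf2rb had 6. Ackr3 was at 71.1 CPM in tag 1 and 11.5, 15.3 and 16.3 in tags 2 to 4, Cx3cr1 at 12.5, 12.7, 11.6 and 10.7, Csf2ra at 4.15 to 4.47, and Csf1r at 8.62, 2.69, 3.68 and 2.05. Of 22 chemokine receptors, 4 could be compared between old and young, of which 1 was higher (Ccr1) and 1 lower past 2-fold. Il34, the other ligand of Csf1r, was at 8.08, 11.1, 20.2 and 11.6 CPM in tags 1 to 4.

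Of the 28 other chemokine ligands counted, 12 had at least 20 UMIs over the old and young cells; 8 were lower in old cells past 2-fold, 1 was higher (Cxcl14) and their median ratio was 0.147. Among them, Ccl5, which attracts T cells, was at 709 CPM in tag 1 and 12.9, 13.6 and 16.1 in tags 2 to 4, and Cxcl10, an interferon-induced ligand of Cxcr3, at 227, 4.30, 4.49 and 7.20. All 7 listed interferon response genes were lower in old cells and all 7 lower with AngII, summing to 2844, 94.1, 348 and 106 CPM in tags 1 to 4. Cxcl2, a neighbour of Cxcl1, was at 67.1, 32.3, 61.2 and 12.2 CPM. With AngII, 4 of 13 other ligands were lower, 1 was higher (Ppbp, from 2 to 31 UMIs) and the median ratio was 0.728; with siPiezo1, 1 of 9 was lower and 0 higher, with a median of 0.846.

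Genes of the NF-kappaB pathway and its early targets were counted in the same way. Of 18, 1 was higher (Lif) and 1 lower in old cells (5.84% and 9.74% of all genes), 1 higher (Lif) and 0 lower with AngII (3.39% and 7.69% of all genes), and 0 passed the fold with siPiezo1, with medians of 0.929, 0.895 and 1.08. Nfkbia, the inhibitor that NF-kappaB induces, was at 216, 152, 172 and 185 CPM in tags 1 to 4, and Il6 was at 131, 102, 125 and 95.4. Of 8 genes that bind AU-rich messages, 0 passed 2-fold in any of the 3 comparisons (medians 1.03, 1.04 and 1.12). Zfp36, which directs decay of such messages, was at 51.9, 39.1, 34.8 and 45.1 CPM.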

How the data were processed

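Per the labels and the study's methods, the 4 hashtagged cultures were pooled and run as 1 10x Genomics 3′ library with a hashtag library, and reads were counted with Cell Ranger and handled in Seurat, as the submitters' processing notes name them; the sources used here name no genome build. The authors deposited 1 unfiltered matrix of raw UMI counts for 32285 genes and 4 hashtags over 2472397 barcodes, not normalized. A cell had at least 200 genes and 2218 gene UMIs, which is the UMI count at percentile 99 of the deepest 10000 barcodes over 10. A cell took a tag where only that hashtag exceeded its cutoff (36, 52, 61 and 41 UMIs for tags 1 to 4).

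Counts were summed per tag and given as CPM with exact Poisson 95% intervals, ratios with exact binomial intervals and shares of cells with Clopper-Pearson intervals. These cover counting error only, since each tag was taken as 1 culture, and no p-value was computed. Genes with at least 20 UMIs over both tags were compared, and a gene past 2-fold was counted as higher or lower. For shares, each cell was thinned to 5000 UMIs, which left out 2433 cells (747, 21, 136 and 114 of tags 1 to 4) and kept 10612. Scrublet (scanpy 1.11.5, expected rate 0.1) marked doublets, which were kept. Clusters came from Seurat 5.3.0 in R 4.3.3 (2000 variable genes, 30 components, 20 neighbours, resolution 0.8), and other steps ran in Python 3.11.15 with numpy 2.4.6 and scipy 1.17.1. The ratio step was tested on simulated data drawn with counting error only, so spread between cells was not part of that test. Of feature IDs, 99.6% matched GENCODE vM21.

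Named genes are the members, the 3 genes most like each by Pearson r, the 3 leading genes of each cluster, genes of the pathway and marker lists, and Piezo1; a gene that this rule names beside Csf1 is not reported here. Gdf15 in cluster 10 was named after its value was seen. The members and lists were chosen with earlier results of these data known. Ccl2, Ccl7, Cxcl5 and Csf3 had no promoter in the RefSeq table used.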

Additional observations from a re-analysis of the deposited data

Results flagged for a closer look

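Cells whose hashtags were all at or below their cutoffs entered no comparison, yet they held every member. In these 5307 cells Ccl2 was at 3188 CPM, Ccl7 at 1001, Csf1 at 387, Cxcl5 at 306 and Cxcl1 at 198. Cxcl12 was at 86.3 CPM, Csf3 at 44.9, Ccl20 at 15.3, Cx3cl1 at 3.33 and Csf2 at 1.24. Near-empty barcodes, the only measure of free RNA here, held Ccl2 at 3212 CPM, Cxcl5 at 491, Csf3 at 36.3 and Cxcl12 at 84.0. Cxcl5, Cxcl1, Csf1 and Csf3 lay between the levels of the young tags and those of the old tags. Of the cells without a tag, 46.7% held Xist and no Y-linked UMIs and 25.9% the reverse. Which culture they came from was not tested.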

How the results depend on the processing

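Of 426 ratios recomputed under 15 alternatives, 281 stayed within the counting interval, 136 moved beyond it and 9 changed direction, and of 96 counts of members past the fold 15 moved by over 1.5 times. The cause was not tested except where the alternative itself leaves out cells. For Ccl20 the ratio of old to young rose to 1.77 with tag cutoffs doubled, 1.73 in cells with Y-linked UMIs only, 1.501 without cells with dividing-cell genes and 1.27 without cluster 10. For siPiezo1 over old, Ccl7 was at 1.06 with a tag at least 3 times the next and 1.08 in cells with Y-linked UMIs only, Csf1 at 1.13 in the latter cells, Ccl20 at 1.29 in cells with Xist only and Ccl2 at 0.893 without dividing-cell genes.

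In cells with Xist only, the counts of members past the fold were 0 higher and 1 lower in old cells and 0 higher and 0 lower with AngII. The count higher with AngII was 0 without doublets and 0 without the 5 highest cells of each tag, and the count lower was 1 without cluster 10. With siPiezo1, 2 members were higher with tag cutoffs doubled, 1 after thinning, 1 without the 5 highest cells, and 1 higher and 1 lower in cells with Y-linked UMIs only. At 1.5-fold in place of 2-fold, 5 members were lower in old cells (among them Csf2, with 4 UMIs in tag 2), 2 higher with AngII and 1 higher with siPiezo1. The share of all genes was computed only at 2-fold with the main settings. The counts in this paragraph have no such share beside them, and no result about the members is read from them. Leaving out cluster 10 and leaving out the highest cells were chosen after seeing the data. So was renaming each cell of 1 tag by its highest hashtag, with each hashtag scaled by its geometric mean over cells. That renaming left cells with no tag or with several tags as they were, so it does not test another way of calling tags. No paired analysis was possible because each group was taken as 1 culture. Depth limits Csf2 and Cx3cl1, with 184 and 307 UMIs in all cells.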
